A study of Mus musculus with 8 samples.

Results

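The genes described are 8 MAP kinase phosphatases of the dual-specificity phosphatase (Dusp) family, Dusp1, Dusp2, Dusp4, Dusp5, Dusp6, Dusp7, Dusp10 and Dusp16, measured by RNA sequencing in mouse regulatory T (Treg) cells labelled as deficient or sufficient for the transcription factor Bcl11b. They were taken by gene symbol from a table of 23997 genes, and all 8 were found in it. The set was chosen by family membership and with the levels in these same groups in view, since Dusp5 and Dusp10 had been seen to be strongly lower in deficient cells. Their differences between the groups are therefore given as a description, with no p-value, and counts of calls among them are not a test. Bcl11b-deficient cells came from C57BL/6 mice of the genotype Bcl11b f/f Foxp3-YFP-Cre/+, with both Bcl11b copies floxed, and Bcl11b-sufficient cells from C57BL/6 mice of the genotype Bcl11b f/+ Foxp3-YFP-Cre/+, so the comparison cells also carried 1 floxed copy and the same Cre. The Cre is fused to YFP and placed on 1 Foxp3 allele, which directs it to cells that express Foxp3. Whether it was also active in other cells was not tested. The other Foxp3 allele is unmodified, so these mice can also hold Treg cells without Cre. Both groups were CD4+YFP+ cells, obtained by sorting from spleen and draining lymph nodes. The labels name no treatment and give neither age nor sex.

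MAP kinases (ERK, JNK and p38) are switched on when a kinase adds phosphates to a threonine and a tyrosine of their activation loop. MAP kinase phosphatases remove both phosphates and so set how long the signal lasts. Several of them are themselves induced by the kinases they switch off, and in T cells they are induced by signals through the antigen receptor. Dusp1, Dusp2, Dusp4 and Dusp5 encode inducible enzymes of the nucleus, Dusp6 and Dusp7 encode cytoplasmic enzymes that prefer ERK, and Dusp10 and Dusp16 encode enzymes that prefer p38 and JNK.

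Each group had 4 columns in the deposited table, with approximately 2700000 to 11870000 fragments per column as estimated from the steps between low values. Replicates 1 and 3 of both groups, and replicates 2 and 4 of the deficient group, agreed within 1.14 to 1.24 times the sampling noise of their reads, against 1.88 to 2.93 times for the other pairs within a group. The mean of each such pair served as 1 sample, giving 2 deficient libraries (written 1+3 and 2+4) and 3 sufficient libraries (1+3, 2 and 4). Nothing in the labels ties the libraries to separate animals, so spreads and p-values describe these libraries and may be technical. Bcl11b was still measured in the libraries labelled deficient, at 18.7 to 24.6 FPKM against 39.1 to 46.5 FPKM in the sufficient libraries, where FPKM is the fragment number scaled for transcript length and for library size. It fell by 0.95 on the log2 scale (SE 0.14, limma adjusted p = 0.0238), and whether the counted exons include the floxed part was not tested. Foxp3 measured 153 ± 0.517 FPKM in the deficient (SD, n = 2) and 187 ± 18.8 FPKM in the sufficient libraries (SD, n = 3). Summed over 15 macrophage markers, the level was 729 and 356 FPKM in deficient 1+3 and 2+4 and 68.05 to 134 FPKM in the sufficient libraries. None of the 15 was listed at 0 in all libraries of a group. Of these markers 8 of 15 rose and 0 fell in deficient libraries by limma adjusted p, with 15 higher and 0 lower at an unadjusted p under 0.05.

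Dusp5, Dusp10 and Dusp4 were at 27.3% to 32.2% of the sufficient level in deficient cells, and Dusp6 was at 170% of it. Dusp1, Dusp2, Dusp7 and Dusp16 overlapped between the groups. In 3 of the 8 genes every deficient library lay below every sufficient library, which was so for 17.9% of the 10614 genes tested, and in 1 of the 8 every deficient library lay above, which was so for 18.9%. All 8 genes passed the filter of a mean of at least 1 FPKM, Dusp16 narrowly. Over the 8 genes the median log2 fold change (deficient minus sufficient, on log2(FPKM + 1)) was -0.32, against -0.01 for all genes tested. The median rested on the libraries, at -0.67 without deficient 1+3, 0.025 without deficient 2+4, -0.57 without sufficient 4 and -0.08 without sufficient 1+3.

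**Figure D1:**
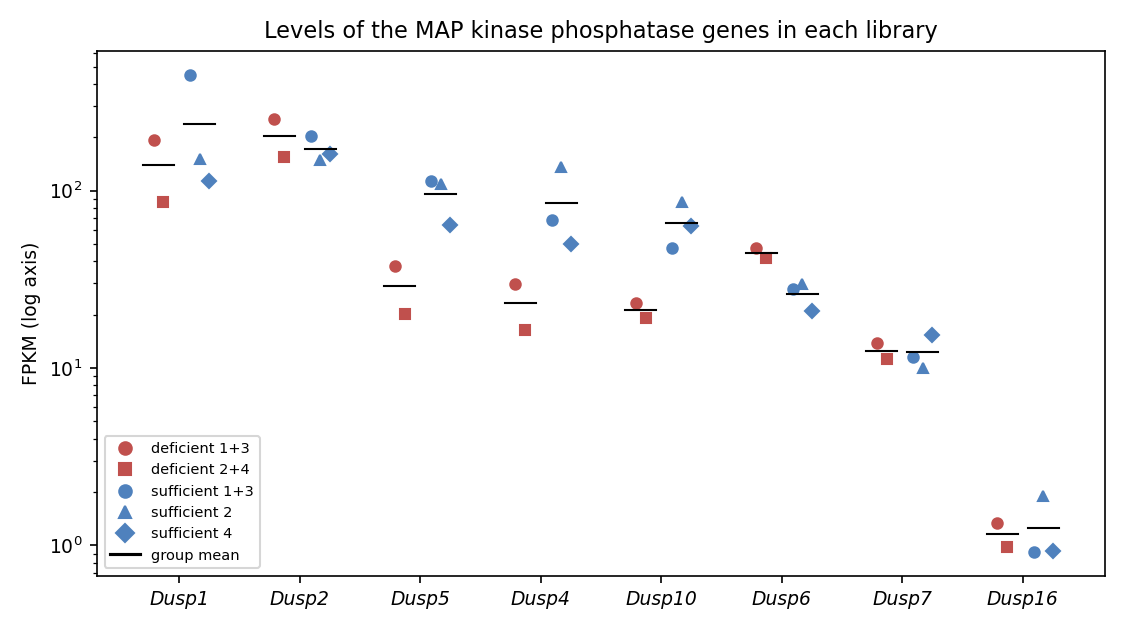
Level of each phosphatase gene in FPKM (log axis) in each of the 5 libraries, deficient in red and sufficient in blue, with a black bar at the group mean. Dusp5, Dusp4 and Dusp10 show red below blue with no overlap, Dusp6 shows red above blue, and the other genes overlap.

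Among the inducible nuclear enzymes, Dusp5, which encodes a phosphatase selective for ERK (ENSMUSG00000034765.6, chromosome 19, 53529109 to 53542431, plus strand in GRCm38), measured 40.4, 18.5, 35.1 and 21.7 FPKM across replicates 1 to 4 of the deficient group. Across replicates 1 to 4 of the sufficient group it stood at 120.2, 109, 108 and 63.7 FPKM. The lowest sufficient library was thus above the highest deficient one, and within the deficient group replicates 1 and 3 were above replicates 2 and 4. The deficient mean was 28.9 ± 12.5 FPKM (SD, n = 2) and the sufficient mean 95.7 ± 27.8 FPKM (SD, n = 3), a log2 fold change of -1.71 (SE 0.32).

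Dusp4, which encodes a nuclear phosphatase of ERK and JNK (ENSMUSG00000031530.6, chromosome 8, 34807297 to 34819894, plus strand), measured 26.9, 16.4, 32.7 and 16.5 FPKM across replicates 1 to 4 of the deficient group. Across replicates 1 to 4 of the sufficient group it stood at 68.4, 136, 67.9 and 50.1 FPKM. Its groups did not overlap either, and sufficient 2 stood above the other sufficient libraries. The deficient mean was 23.1 ± 9.44 FPKM (SD, n = 2) and the sufficient mean 84.9 ± 45.6 FPKM (SD, n = 3), with a log2 fold change of -1.76 (SE 0.42), which had the largest size of the 8 and also a wider error than those of Dusp5 and Dusp10.

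Dusp1, the immediate-early phosphatase of p38, JNK and ERK (ENSMUSG00000024190.7, chromosome 17, 26505590 to 26562128, minus strand), measured 191, 82.8, 194 and 89.1 FPKM across replicates 1 to 4 of the deficient group and 457, 150, 443 and 113 FPKM across those of the sufficient group. Replicates 1 and 3 were high in both groups, and deficient 1+3 lay above sufficient 2 and 4, so the groups overlapped. The log2 fold change was -0.61 (SE 0.59). It ran from -1.19 without deficient 1+3 to -0.02 without sufficient 1+3, with -0.03 without deficient 2+4 and -1.01 without sufficient 4. Its SD within groups, on the log2 scale, was larger than that of 99.3% of the genes tested.

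Dusp2, which encodes the nuclear phosphatase first described in activated lymphocytes (ENSMUSG00000027368.6, chromosome 2, 127336159 to 127338376, plus strand), measured 266, 157, 242 and 152 FPKM across replicates 1 to 4 of the deficient group and 202, 149, 203 and 161 FPKM across those of the sufficient group. Its groups overlapped, with a log2 fold change of 0.23 (SE 0.23) that turned to -0.13 without deficient 1+3.

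Dusp6, which encodes a cytoplasmic ERK phosphatase that takes part in negative feedback on ERK (ENSMUSG00000019960.8, chromosome 10, 99263231 to 99267489, plus strand), was the gene of the set with higher levels in every deficient library. Its values were 47.4, 42.4, 47.6 and 40.5 FPKM across replicates 1 to 4 of the deficient group and 29.1, 29.6, 26.5 and 20.9 FPKM across those of the sufficient group. The deficient mean was 44.5 ± 4.32 FPKM (SD, n = 2) and the sufficient mean 26.1 ± 4.60 FPKM (SD, n = 3), a log2 fold change of 0.76 (SE 0.16). Dusp7, the other cytoplasmic ERK phosphatase (ENSMUSG00000053716.9, chromosome 9, 106368632 to 106375724, plus strand), overlapped between groups, at 14.4, 12.1, 13.2 and 10.6 FPKM across replicates 1 to 4 of the deficient group and 12.0, 10.02, 11.2 and 15.4 FPKM across those of the sufficient group. Its log2 fold change was 0.04 (SE 0.19).

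Of the p38 and JNK phosphatases, Dusp10 (ENSMUSG00000039384.8, chromosome 1, 184013302 to 184075636, plus strand) measured 22.4, 19.1, 23.9 and 19.04 FPKM across replicates 1 to 4 of the deficient group. Across replicates 1 to 4 of the sufficient group it stood at 47.5, 86.0, 47.3 and 63.2 FPKM. The deficient libraries lay close together, and every sufficient value was well above the highest deficient one. The deficient mean was 21.1 ± 2.89 FPKM (SD, n = 2) and the sufficient mean 65.5 ± 19.4 FPKM (SD, n = 3), a log2 fold change of -1.55 (SE 0.23). Dusp16 (ENSMUSG00000030203.17, chromosome 6, 134715468 to 134792625, minus strand) was near 1 FPKM, from 0.867 to 1.39 FPKM in deficient and from 0.784 to 1.90 FPKM in sufficient replicates, and its groups overlapped, with a log2 fold change of -0.04 (SE 0.26). Its values rested on approximately 15 to 72 fragments per library, as counted over its longest annotated coding transcript of 5104 bases, against at least 104 for every other gene of the set. Averaged replicates differed from each other by at most 1.22 times in the 7 other genes and by up to 1.4 times in Dusp16.

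The promoters of Dusp5, Dusp10 and Dusp1 are shown. The first 2 are the genes that led to the choice of the set. Dusp1 had the largest SD within groups of the 8, on the log2 scale. Of the 8 genes 7 had an entry in the RefSeq promoter table of GRCm38.p6, and Dusp4 had none. Each sequence holds the 250 bases before the start that RefSeq gives, 5′ to 3′ on the strand of the gene, with motif matches in capitals. The gene coordinates given above are from GENCODE M21 and span all its transcripts, and the RefSeq start lies inside them by 36 bases for Dusp5, 21079 bases for Dusp10 and 53656 bases for Dusp1. Distances of motifs are counted from the RefSeq start and would differ from another start. The Dusp5 sequence is chr19:53528895-53529144 (plus strand), the Dusp10 sequence chr1:184034131-184034380 (plus strand) and the Dusp1 sequence chr17:26508473-26508722 (minus strand).
Dusp5: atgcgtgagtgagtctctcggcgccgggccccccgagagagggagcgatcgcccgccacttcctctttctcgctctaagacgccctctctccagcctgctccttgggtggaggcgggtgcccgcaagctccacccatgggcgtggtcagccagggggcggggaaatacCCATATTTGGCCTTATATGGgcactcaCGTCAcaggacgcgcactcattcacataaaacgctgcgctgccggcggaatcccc
Dusp10: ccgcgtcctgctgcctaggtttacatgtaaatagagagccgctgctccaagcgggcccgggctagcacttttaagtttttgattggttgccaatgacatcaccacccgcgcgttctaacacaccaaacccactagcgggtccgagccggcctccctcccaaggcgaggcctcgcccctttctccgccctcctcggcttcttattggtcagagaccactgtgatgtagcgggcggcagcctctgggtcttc
Dusp1: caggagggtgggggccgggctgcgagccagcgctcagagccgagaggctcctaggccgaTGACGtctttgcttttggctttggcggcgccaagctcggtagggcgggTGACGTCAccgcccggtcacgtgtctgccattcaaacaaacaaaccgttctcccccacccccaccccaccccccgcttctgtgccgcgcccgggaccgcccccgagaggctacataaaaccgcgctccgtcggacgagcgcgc

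Motifs of transcription factors downstream of MAP kinases were searched on both strands, namely the cyclic AMP response element (CRE, TGACGTCA), its half-site (TGACG, which overlaps the full element), the AP-1 site (TGANTCA), an ETS site (CCGGAAG) and the CArG box, which binds serum response factor. The Dusp5 window held a pair of CArG boxes side by side, starting 82 and 72 bases before the RefSeq start, and a CRE half-site at 55 bases. A CArG box was present in 1.47% of 32851 promoter windows of this length, and in 1 of the 7 phosphatase windows. The Dusp1 window held a full CRE starting 143 bases before the RefSeq start, as did 1.55% of all windows, and a further half-site at 191 bases. Dusp16 held a half-site, which was present in 17.8% of all windows. AP-1 sites (6.75% of all windows) and ETS sites (6.91%) were in none of the 7 windows, and the Dusp10 window held none of the motifs. A match describes these letters and does not show that a factor binds there.

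The fit across all genes (limma, Benjamini-Hochberg adjusted p under 0.05) called 2 of the 8 genes lower, beside 0.697% of all genes tested, and 0 higher, beside 1.93%. The 2 were Dusp5 and Dusp10, whose lower levels in this contrast led to the choice of the set, so their calls are no independent evidence. At an unadjusted p under 0.05 it had 3 of the 8 lower, beside 8.45% of all genes tested, and 1 higher, beside 9.36%. These counts come from the contrast on which the set was chosen and describe it only. When every library was scaled to the same total, the all-gene median became 0.18 and 91.9% of called genes were higher, against 73.5% on the deposited scale. On that scale Dusp5 was at -1.50, Dusp4 at -1.55, Dusp10 at -1.35 and Dusp6 at 0.97.

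The libraries in which Dusp4, Dusp5 and Dusp10 were lower also differed in markers of cell identity. The 10 genes of the Treg list include Cd4, Cd3e, Cd3g and Cd3d, which other T cells also express, so their sum is not specific to Treg cells. They summed to 2017 and 2168 FPKM in the deficient and 2612 to 2800 FPKM in the sufficient libraries. By limma adjusted p 2 of the 10 fell, Ctla4 and Tnfrsf4, and at an unadjusted p under 0.05 5 were lower and 0 higher. NK cell markers summed to 47.2 and 84.1 FPKM against 10.8 to 20.8 FPKM, with 3 of 7 tested members higher and Klre1 listed at 0 in all sufficient libraries. Dendritic cell markers summed to 162 and 165.5 FPKM against 134 to 145 FPKM, with 2 of 5 tested members higher and 0 lower. Bst2 made up most of that sum. The 2 higher genes were Siglech, at a mean of 4.32 against 0.146 FPKM, and Batf3, at 3.82 against 0.499 FPKM. The sum of the B cell markers overlapped between the groups, at 10.7 and 14.1 against 11.6 to 21.9 FPKM. Of 3 tested B cell markers 0 were called by limma, and 2 were lower and 0 higher at an unadjusted p under 0.05. The sums also overlapped for neutrophil markers (7.26 and 33.9 against 3.58 to 39.01 FPKM) and erythroid markers (19.96 and 208 against 0.682 to 118 FPKM). The CD8 T cell markers Cd8a and Cd8b1 summed to 10.6 and 11.2 against 11.6 to 15.1 FPKM. As means over the libraries, the highest and lowest genes were Cd3g (544 FPKM) and Ikzf2 (56.8 FPKM) of the Treg list, Ctsb (73.04 FPKM) and Cd14 (1.02 FPKM) of the macrophage list, and Nkg7 (12.8 FPKM) and Klre1 (0.065 FPKM) of the NK list. They were Bst2 (120 FPKM) and Xcr1 (0.115 FPKM) of the dendritic list, Cd79b (10.5 FPKM) and Ebf1 (0.0237 FPKM) of the B cell list, S100a9 (7.39 FPKM) and Elane (0.78 FPKM) of the neutrophil list, and Hbb-b1 (42.5 FPKM) and Hbb-bs (0.0103 FPKM) of the erythroid list. The part of these cell types in the phosphatase levels was not tested, and in bulk RNA fewer cells of a type and less RNA per cell cannot be told apart.

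The order of levels within the set differed between the groups. In the sufficient group the means ran from Dusp1 (238 ± 185 FPKM) and Dusp2 (171 ± 28.2 FPKM) through Dusp5, Dusp4 and Dusp10 to Dusp6, Dusp7 and Dusp16 (1.25 ± 0.565 FPKM). Within the sufficient group the order of Dusp1 and Dusp2, and that of Dusp5, Dusp4 and Dusp10, changed from library to library. In the deficient group the means ran from Dusp2 (204 ± 70.4 FPKM) and Dusp1 (139 ± 75.5 FPKM) to Dusp6, then to Dusp5, Dusp4 and Dusp10. Last came Dusp7 (12.5 ± 1.75 FPKM) and Dusp16 (1.16 ± 0.257 FPKM). Dusp2 was above Dusp1, and Dusp5 above Dusp4 and Dusp10, in both deficient libraries, while the order of Dusp4 and Dusp10 changed. Differences between genes were not tested. Dusp6 thus stood above Dusp4, Dusp5 and Dusp10 in both deficient libraries and below all of them in the 3 sufficient libraries. The ratio of Dusp5 to Dusp6, a nuclear and a cytoplasmic ERK phosphatase, was 0.794 and 0.485 in the deficient libraries 1+3 and 2+4. In the sufficient libraries 1+3, 2 and 4 it was 4.09, 3.70 and 3.05. It joins a gene that led to the choice of the set with the only gene higher in every deficient library. It does not describe nuclear and cytoplasmic enzymes as classes, since Dusp7, also cytoplasmic, overlapped between the groups.

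Summed over the 8 genes, the level was 600.2 and 350 FPKM in deficient 1+3 and 2+4 and 923, 673 and 488 FPKM in sufficient 1+3, 2 and 4, so the sums overlapped. Dusp1 and Dusp2 made up 74.4% and 68.7% of the sum in the deficient and 70.8%, 44.5% and 56.1% in the sufficient libraries. Dusp4, Dusp5 and Dusp10 together made up 15.1% and 15.9% in the deficient and 24.9%, 49.3% and 36.3% in the sufficient libraries. Dusp6 made up 7.92% and 11.8% against 3.02%, 4.40% and 4.28%.

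**Figure D2:**
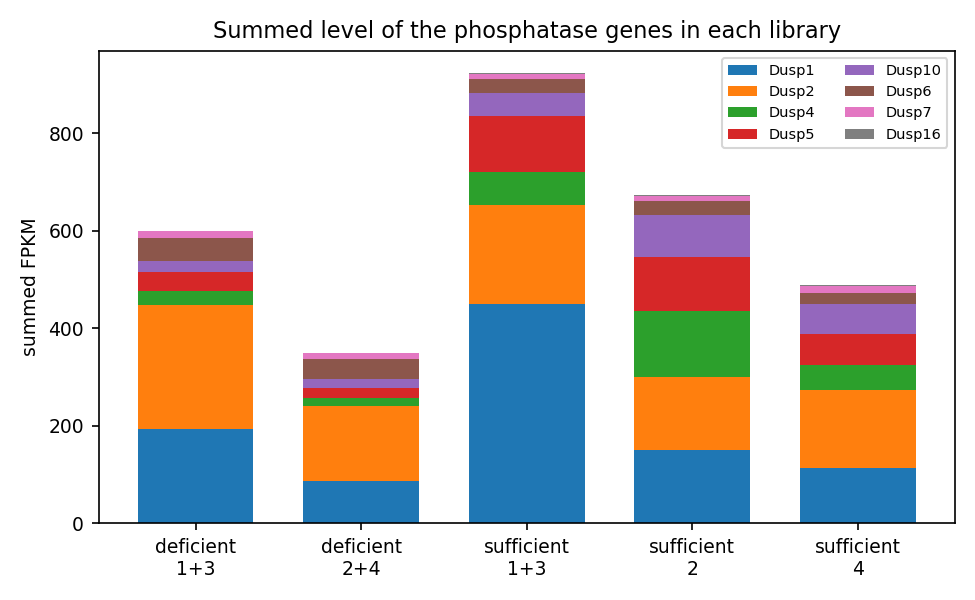
Stacked bars of the level of each phosphatase gene in FPKM, one bar per library. The Dusp4, Dusp5 and Dusp10 segments sum to 90.7 and 55.6 FPKM in the deficient bars and to 230, 332 and 177 FPKM in the sufficient bars, while the Dusp1 segment is tall in both bars labelled 1+3.

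Deficient 1+3 was above deficient 2+4 by 2.24 times in Dusp1, 1.88 times in Dusp5, 1.81 times in Dusp4 and 1.64 times in Dusp2. The ratio was 1.37 in Dusp16, 1.22 in Dusp7, 1.21 in Dusp10 and 1.15 in Dusp6. On the log2(FPKM + 1) scale 4 of the 8 genes were at least 1.5-fold higher in deficient 1+3, as were 13 of 22 genes of a list of immediate-early and other MAP kinase-induced genes, against 3.59% of all genes tested. The difference between these libraries was not used to choose the set, but with 1 library on each side it has no test. Fos, which encodes a subunit of the AP-1 transcription factor, measured 680 and 434 FPKM in deficient 1+3 and 2+4 and 817, 313 and 282 FPKM in sufficient 1+3, 2 and 4. Jun, its partner, measured 273 and 124 FPKM in the deficient and 229, 146 and 114 FPKM in the sufficient libraries. Fos, Jun and Dusp1 were highest in library 1+3 within each group, but not all induced genes were. Of the 22 listed genes 12 were highest in library 1+3 of both groups (54.5%), as were 3 of the 8 phosphatase genes and 12.2% of all genes tested. Fosl2 and Egr1, for example, were not highest in sufficient 1+3. Markers of other cell types also differed between deficient 1+3 and 2+4, with macrophage markers summing to 729 and 356 FPKM, NK cell markers to 47.2 and 84.1 FPKM and erythroid markers to 19.96 and 208 FPKM. Their part in these differences was not tested.

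**Figure D3:**
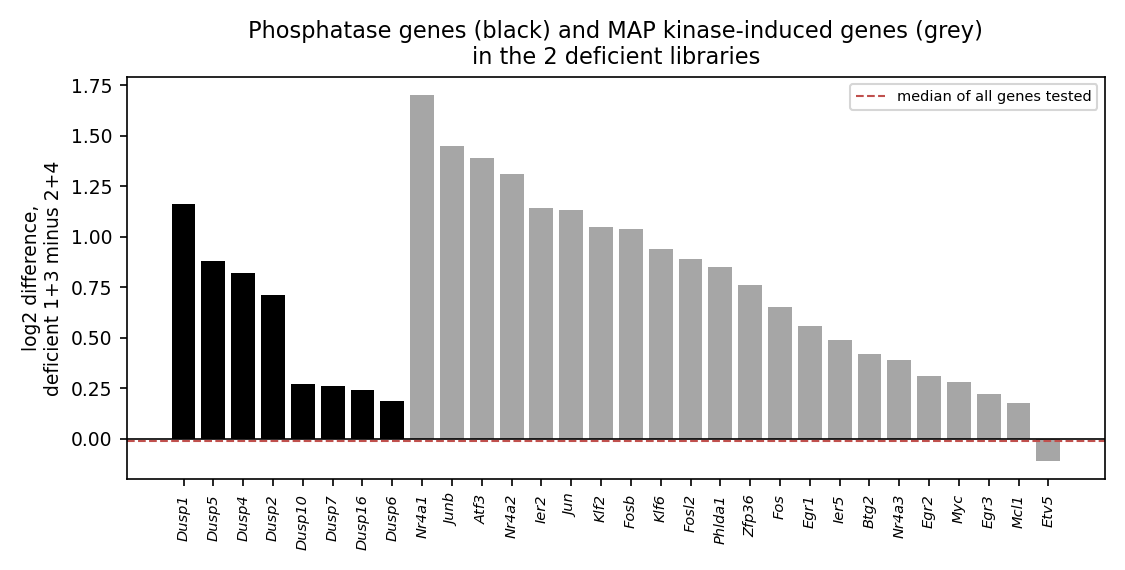
Log2 difference between deficient libraries 1+3 and 2+4, on log2(FPKM + 1), for the 8 phosphatase genes (black bars) and 22 MAP kinase-induced genes (grey bars), with the median of all genes tested as a dashed line at -0.01. All black bars and all grey bars but that of Etv5 are above 0, with Dusp1 at 1.16 and Nr4a1 at 1.70.

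Genes whose profile over the 5 libraries was most like that of Dusp5 or Dusp10 were sought among 8248 others with a mean of at least 5 FPKM, by the root mean square difference of their centred log2(FPKM + 1) values. For Dusp5 the nearest were Lrrc32, which holds latent TGF-beta on the cell surface (0.226), Ctla4, an inhibitory receptor (0.241), Bmyc (0.245) and Nfil3, a basic leucine zipper transcription factor (0.252). Lrrc32 measured 38.2 and 32.6 FPKM in deficient 1+3 and 2+4 and 143, 144 and 94.95 FPKM in sufficient 1+3, 2 and 4. Dusp4 ranked 8 and Dusp10 ranked 26 for Dusp5. For Dusp10 the nearest were Tnfrsf4, a costimulatory receptor (0.156), Tgif1, a homeodomain transcription repressor (0.180), Vps37b, a subunit of the endosomal sorting machinery (0.195), and Penk, which encodes the precursor of enkephalins (0.212). Tnfrsf4 measured 60.5 and 59.6 FPKM in the deficient and 161, 219 and 190 FPKM in the sufficient libraries. Dusp4 ranked 25 and Dusp5 ranked 56 for Dusp10, while Dusp6 ranked 8026 for Dusp5 and 8066 for Dusp10. The profiles cover 5 libraries in 2 groups, so genes that differ between the groups by a similar amount come out as alike.

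The rest of the MAP kinase cascades was described with 12 lists of 169 genes, of which 135 were tested. Over these lists 3 genes rose and 0 fell in deficient libraries (limma, adjusted p under 0.05), which is 2.22% higher, near the 1.93% of all genes, and at an unadjusted p under 0.05 12 were higher (8.89%, against 9.36% of all genes) and 6 lower (4.44%, against 8.45% of all genes). The 3 were Mapk12, Sos2 and Rps6ka5. The count was 1 without sufficient 2, sufficient 4 or sufficient 1+3 and 0 without deficient 1+3 (16 at an unadjusted p under 0.05) or deficient 2+4 (10). The median log2 fold change over the lists was -0.01, the same as that of all genes tested.

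Mapk12, which encodes the gamma isoform of p38, measured 18.5 and 18.6 FPKM in deficient 1+3 and 2+4 and 7.89, 7.55 and 9.07 FPKM in sufficient 1+3, 2 and 4. The groups did not overlap, and the difference was 1.09 on the log2 scale with SE 0.12 (limma adjusted p = 0.00982). Its call ended without deficient 1+3 (adjusted p = 0.106) or deficient 2+4 (adjusted p = 0.0912). It was the only call among 10 tested MAP kinases, and Mapk3, which encodes ERK1, was among those that did not pass.

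Sos2, a Ras exchange factor, measured 13.9 and 13.4 FPKM in deficient 1+3 and 2+4 and 7.80, 8.65 and 8.74 FPKM in sufficient 1+3, 2 and 4, a log2 fold change of 0.64 (SE 0.11, limma adjusted p = 0.0387). Rps6ka5, a nuclear kinase activated by ERK and p38 (MSK1), measured 6.59 and 8.23 FPKM in the deficient and 3.08, 3.88 and 2.89 FPKM in the sufficient libraries, or 0.97 on the log2 scale (SE 0.17, limma adjusted p = 0.0356). Both lost their calls with no filter on low values (adjusted p = 0.0883 for Sos2 and 0.107 for Rps6ka5) and whichever of the 5 libraries was left out, with adjusted p from 0.0717 to 0.256 for Sos2 and from 0.0581 to 0.239 for Rps6ka5. Sos2 also lost it with a filter at 5 FPKM (adjusted p = 0.0531).

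**Figure D4:**
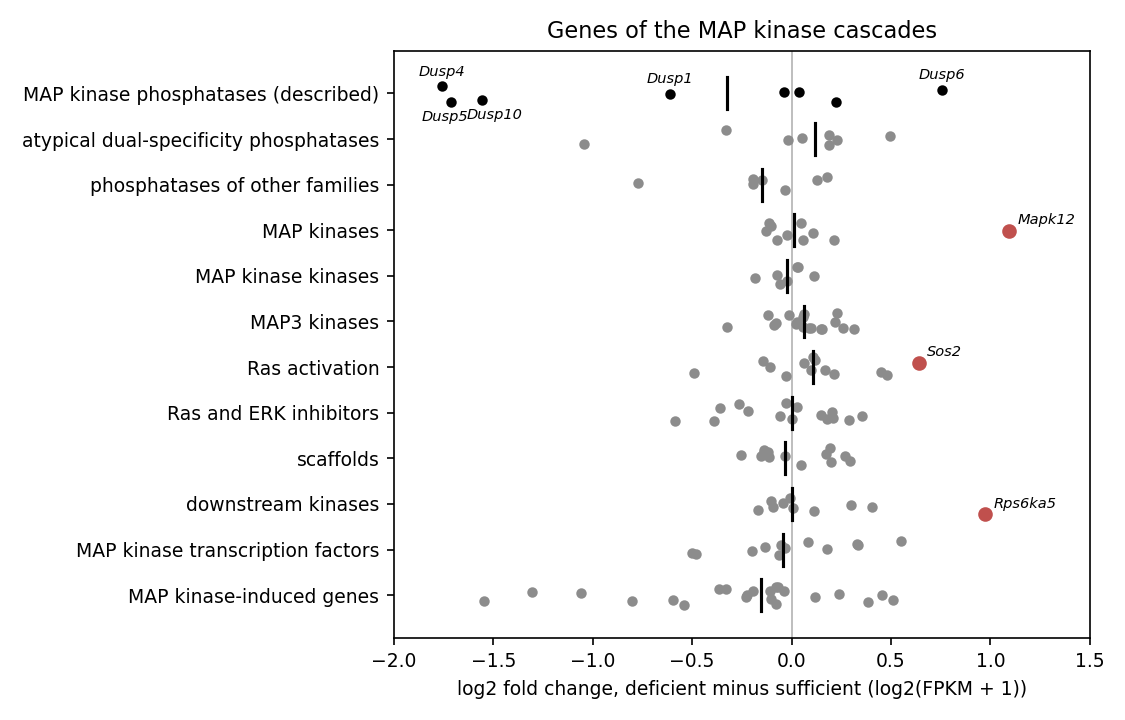
Log2 fold change (deficient minus sufficient, on log2(FPKM + 1)) of each tested gene, one row per list, with black bars at list medians. The phosphatase genes described are in black, and the 3 genes of the other lists that passed the test are in red: Mapk12 at 1.09, Rps6ka5 at 0.97 and Sos2 at 0.64.

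Dusp8 and Dusp9, the remaining catalytically active MAP kinase phosphatases, had means below 0.2 FPKM in both groups and were not tested. Of 16 atypical dual-specificity phosphatase genes, which lack the MAP kinase binding domain, 8 were tested and 0 were called by limma (1 at an unadjusted p under 0.05), with a median of 0.12. The lowest adjusted p-values in that list belonged to Dusp22 at 3.75 and 4.84 FPKM in the deficient against 2.24 to 3.13 FPKM in the sufficient libraries (limma adjusted p = 0.225) and to Dusp14 at 0.651 and 0.781 FPKM against 1.36 to 6.38 FPKM (adjusted p = 0.32). Of 7 tested phosphatases of other families that act on MAP kinases 0 were called, also at an unadjusted p under 0.05, with Ppm1a at 27.3 ± 0.957 against 31.5 ± 1.73 FPKM (SD, n = 2 and 3, limma adjusted p = 0.37) and Ptpn5 at 0.454 ± 0.314 against 1.74 ± 1.56 FPKM (adjusted p = 0.434).

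Of 7 tested MAP kinase kinases 0 were called by limma, also at an unadjusted p under 0.05, and their log2 fold changes lay between -0.18 (Map2k2, adjusted p = 0.422) and 0.11 (Map2k5, adjusted p = 0.627). Of 18 tested MAP3 kinases 0 were called (2 at an unadjusted p under 0.05), with the lowest adjusted p-values for Taok2 (log2 fold change 0.31, adjusted p = 0.216) and Map3k5 (-0.33, adjusted p = 0.249). Of 13 tested Ras activation genes only Sos2 was called, and 3 were higher and 1 lower at an unadjusted p under 0.05. Over all genes tested, 9.36% were higher and 8.45% lower at that threshold. Among 15 tested inhibitors of Ras and ERK 0 were called (3 at an unadjusted p under 0.05). The adaptor gene Dok2 measured 68.7 ± 3.45 against 88.5 ± 4.38 FPKM (SD, n = 2 and 3, limma adjusted p = 0.134), and Rasa3, a Ras GTPase-activating protein, 133 ± 3.58 against 104 ± 4.63 FPKM (adjusted p = 0.135). Of 13 tested scaffold genes 0 were called (1 at an unadjusted p under 0.05), with Iqgap1 at 0.29 on the log2 scale (adjusted p = 0.262) and Lamtor2 at -0.25 (adjusted p = 0.335).

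Of 10 tested kinases downstream of MAP kinases only Rps6ka5 was called. At an unadjusted p under 0.05, 3 were higher and 0 lower, beside 9.36% and 8.45% of all genes tested. Beyond these kinases, 0 of 12 tested transcription factors phosphorylated by MAP kinases were called by limma (1 at an unadjusted p under 0.05). Elk3, an ETS factor, measured 38.2 and 36.5 FPKM in deficient 1+3 and 2+4 and 29.8, 29.1 and 29.3 FPKM in sufficient 1+3, 2 and 4 (limma adjusted p = 0.135), and Elk4 was at 0.55 on the log2 scale (adjusted p = 0.28). Among 22 tested MAP kinase-induced genes, whose proteins include AP-1, Egr and Nr4a factors, 0 were called (2 lower and 0 higher at an unadjusted p under 0.05). Of the 22, 17 had a log2 fold change below 0, with a median of -0.15, against -0.01 for all genes tested. The deficient libraries differed by more, with 21 of the 22 higher in 1+3 than in 2+4. The median log2 difference between those libraries was 0.81, against -0.01 for all genes tested. Fosl2, which encodes an AP-1 subunit, measured 5.90 and 2.72 FPKM in the deficient and 8.34, 17.95 and 10.1 FPKM in the sufficient libraries, which is -1.30 on the log2 scale (SE 0.35, limma adjusted p = 0.124). Nr4a2, an orphan nuclear receptor, overlapped between the groups, at -1.55 on the log2 scale (SE 0.56, limma adjusted p = 0.217). Egr1, the ERK-induced zinc finger factor, measured 81.8 and 55.3 FPKM in the deficient and 70.8, 61.3 and 83.03 FPKM in the sufficient libraries (limma adjusted p = 0.87).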

How the data were processed

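RNA was measured in sorted CD4+YFP+ cells, in 8 samples of 2 groups, which were reduced to 5 libraries by averaging near-identical columns. Whether the averaged columns are repeat runs of 1 library is not stated in the labels. The authors deposited a table of FPKM values, a unit taken from its name and values. The submitters' processing notes name STAR 2.5.1 and the mm10 build, Cuffdiff 2.2.1 and Cuffnorm 2.2.1, and for trimming and quality control cutadapt 1.12, Trim Galore 0.4.2 and FastQC. Settings, annotation and scaling between libraries are not named there. Of 16 value columns, 8 matched samples by title and 8 matched none and were not used. FPKM is relative within a library, so abundant transcripts move all other values.

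Depth was read from the steps of low values in genes with a single annotated transcript (GENCODE M21) and is approximate. Columns of 1 group that differed by under 1.5 times sampling noise at 150 to 500 fragments were averaged. The fit used R 4.3.3 and limma 3.58.1 on log2(FPKM + 1), over genes whose mean reached 1 FPKM (mean-variance trend, group as the only term, two-sided, Benjamini-Hochberg over all 10614 genes). The script was tested on simulated data. The log2(FPKM + 1) scale understates changes of low genes. SE is from limma.

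The genes and all lists were chosen with earlier results of these data known. Named genes were the 8 phosphatases, every called gene of a pathway list or else the 2 with the lowest adjusted p, the 4 nearest profiles of Dusp5 and of Dusp10, Bcl11b, and the highest and lowest of each marker list. Fos, Jun, Egr1, Etv5, Mapk3, Nr4a1, Siglech and Batf3 were named after their values were seen. Alternatives covered pseudocount, filter, scaling, averaging, a replicate block, robust empirical Bayes and each library left out.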

Additional observations from a re-analysis of the deposited data

How the results depend on the processing

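Against 279 called genes (205 higher, 74 lower), the count was 182 with a pseudocount of 0.1 (124 higher), 99 with no filter on low values (91 and 8), 113 with a filter at 5 FPKM (73 and 40) and 369 with equal totals (339 and 30). The 8 columns as separate libraries gave 1851 (1004 and 847), a setting that counts the near-identical columns as separate replicates. With the replicate number as a block on those 8 columns, 1418 were called (776 and 642). The numbers were not treated as pairs, since the labels do not say that they pair the samples. Deviations of same-numbered samples correlated at 0.029 to 0.126 across genes. Deficient replicates 2, 3 and 4 correlated best with the sufficient replicate of the same number, and deficient replicate 1 with sufficient replicate 2 (0.13). Whether same-numbered samples share a batch was not tested. Leaving out libraries gave 8 to 297 calls, 8 to 216 higher and 0 to 81 lower (at 0 lower, 591 were lower at an unadjusted p under 0.05), with the largest drops without sufficient 2 (80), sufficient 4 (133), sufficient 1+3 (167), deficient 1+3 (16) and deficient 2+4 (8). The last 2 leave 1 deficient library, whose spread is assumed to be that of the sufficient group. Calls in the pathway lists numbered 1 with a filter at 5 FPKM, 18 with 8 columns, 17 with the replicate block and 0 to 3 with libraries left out.

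The phosphatase median ran from -0.674 to 0.025 with libraries left out and turned positive without deficient 2+4. The cause was not tested. Over 20 alternatives each, the log2 fold change lay between -2.15 and -1.27 for Dusp5, -1.76 and -1.34 for Dusp10, -2.17 and -1.35 for Dusp4, 0.61 and 0.97 for Dusp6 and -1.19 and -0.02 for Dusp1. The filters and robust empirical Bayes cannot change these values, and the replicate block repeats those of the 8 columns. Leaving out 1 column of an averaged pair keeps all 5 libraries. The ranges therefore rest on fewer separate checks. That of Dusp2 was below 0 in 1 alternative, Dusp7 in 3 of 20 and Dusp16 above 0 in 6 of 19. Depth limits Dusp16, with approximately 15 fragments in the shallowest library.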
